A study of Gallus gallus with 4 samples.

Results

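Goggle-covered chick eyes kept under violet light were set against uncovered chick eyes kept under normal light. The members are the 2 scanner arrays whose titles carry these labels, out of 4 arrays in the series. They are the pools that differ in both factors of the design at once, the goggle and the light. A difference between them can belong to either factor, to the pair of them, or to the chicks. It can also belong to the side of the eye, since covered eyes were right and uncovered eyes left, or to each pool's handling and array. These cannot be told apart.

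The series measured gene expression in retina cut out together with the choroid that lies behind it, from 8 chicks. Each right eye was covered with a glass goggle from day 6 after hatching and each left eye served as a control, and the goggles stayed on for 7 days with 12 hours of light a day. By the labels the goggle was meant to make the eye short-sighted. The light was either normal or violet, and tissue was taken on day 13 as buttons 6 mm across, cut temporal to the optic nerve. Total RNA of 4 eyes was mixed per group, so that 16 eyes gave 4 pools, each read on 1 array of a single slide.

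The covered violet pool holds right eyes that wore the goggle under violet light. The covered normal pool holds goggled right eyes under normal light, and the uncovered violet pool holds open left eyes under violet light. The uncovered normal pool, the baseline of the comparison, holds open left eyes under normal light. Every chick wore a goggle on its right eye, so the uncovered eyes are fellow eyes of goggled ones and no pool comes from an unmanipulated animal. Light was given to the whole bird, so the 2 pools compared come from different chicks. The sources used here do not give strain or sex.

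A growing chick eye matches its length to its optics, and depriving it of a sharp image makes it elongate and become short-sighted. The retina is the sensor in this loop, and its signals pass through the pigment epithelium and the choroid to the sclera, the outer coat that sets the length of the eye. EGR1, known as ZENK in birds, is an immediate-early transcription factor of retinal amacrine cells whose level is known to follow the direction in which the eye is being driven to grow. Violet light lies at the short-wavelength end of the visible range, where birds have a cone pigment of their own.

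The direction of each difference rests on labels that the deposited sources do not share. Across probes on the log2 scale, the column that the authors' table labels covered violet correlated at 0.99974 with the scanner array titled uncovered normal and at 0.98153 with the one titled covered violet. The table's uncovered normal column correlated at 0.99921 with the scanner array titled covered violet and at 0.98125 with the one titled uncovered normal. The covered normal and uncovered violet columns matched their own scanner arrays, at 0.9995 and 0.99962. The brightest of the spike-in control spots, whose RNA is added in known amounts, showed the same exchange. It read 222529 on the scanner's covered violet array against 128382 on its uncovered normal array, and 75230 in the table's covered violet column against 289000 in its uncovered normal column. The size of every difference therefore holds under either labelling, and the sign turns over. Sizes are given first, and every direction below follows the scanner labels, against those of the authors' table. So does every order of pools. Under the table's labels, a gap between covered and uncovered pools becomes one between normal and violet light, and the reverse.

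The 4 arrays had 83.08% to 85.97% of spots well above background, the mark the scanning program sets, and 0 saturated spots. The 75th percentile of the processed signal, to which each array was scaled, was 883 on the covered violet array against 2108 on the uncovered normal array. A relative signal of 1 below is that percentile of the array in question. Among 43 probes printed 5 times, the SD of the log2 difference between the 2 arrays over the spots of a probe had a median of 0.0501, which covers spot error alone. The scanning program's own error of a log2 difference had a median of 0.204. With 1 array a group there is no error between animals, and no p-value can be given. The number of arrays limits the precision of every value below.

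The tissue label was checked against markers. Retina is the word in the titles, whereas by the protocol the buttons held choroid as well. Of the retinal interneuron and ganglion cell list, 16 of 16 members on the array were well above background on both arrays, as were 15 of 15 phototransduction genes and 8 of 8 pigment cell genes. So were 13 of 15 endothelial genes, 23 of 23 fibroblast and matrix genes, 23 of 29 striated muscle genes and 16 of 18 lens genes. Of all 5294 genes with a symbol on the array, 4846 passed the same filter, so passing it does not mark a tissue. The pools gave signal for genes best known from vessels, connective tissue, muscle and lens, as they did for most genes on the array. Counts of list members below cover those well above background on both arrays, a filter that leaves out a gene silent in either pool. In pooled tissue, fewer cells of a type and less RNA per cell cannot be told apart.

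Of 43603 probes, 35848 were well above background on both arrays with no outlier mark, and they covered 4846 genes with a symbol. Each gene is represented by its brightest such probe. The size of the log2 difference between the 2 arrays had a median of 0.269 over genes, which is 1.2-fold, and its SD was 0.528. A gene was counted as different where it reached 2-fold, and 294 genes did, which is 6.07% of those measured. At least 4-fold differences were found for 25 genes, 8-fold for 7 and 16-fold for 2. Over all passing probes, 3889 or 10.8% reached 2-fold. Over the 35407 probes that passed on all 4 arrays, the 2 pools had an SD of the difference of 0.586, close to the 0.604 between covered normal and uncovered normal. The uncovered violet array differed from the uncovered normal array with an SD of 0.441. The 3 pairs that leave out the uncovered normal array had SDs of 0.285 to 0.393. The pair of pools that shares no array with the one described here, covered normal against uncovered violet, was narrower. Of 4807 genes measured on all 4 arrays, 5.95% were at least 2-fold apart between covered violet and uncovered normal, and 3.16% between covered normal and uncovered violet, with 2.48% higher and 0.686% lower in covered normal. Over probes, the pairs that include the uncovered normal array were the wider ones. Over genes, uncovered violet against uncovered normal had an SD of 0.403 and was narrower than covered normal against uncovered violet, at 0.464.

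By the scanner labels, 174 genes were at least 2-fold higher in the covered violet pool, 3.59% of those measured, and 120 were at least 2-fold lower, 2.48%. Over probes the balance leaned further, with 3370 higher, or 9.4%, and 519 lower, or 1.45%. The balance depended on the scaling. Scaling each array to its median instead of its 75th percentile moved the median of all genes to -0.26, against 0.02 as measured, and gave 74 higher and 239 lower genes. Higher calls then made up 23.6% of all calls, against 59.2% as measured. Quantile normalization gave 82 and 184, or 30.8% higher, cyclic loess 86 and 187, or 31.5% higher, and normexp background correction 191 and 54, or 78% higher. The share was 44.6% with brighter probes only and 66.5% with the mean of a gene's probes. The authors' deposited table, read by array against its own labels, gave 79 higher and 182 lower genes, so it leaned as quantile normalization did. Under its own labels 69.7% of its calls were higher. Quantile normalization kept 80 of the 174 higher and 119 of the 120 lower genes, and no called gene crossed to the other side in any scaling except that to the spike-in spots.

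**Figure D1:**
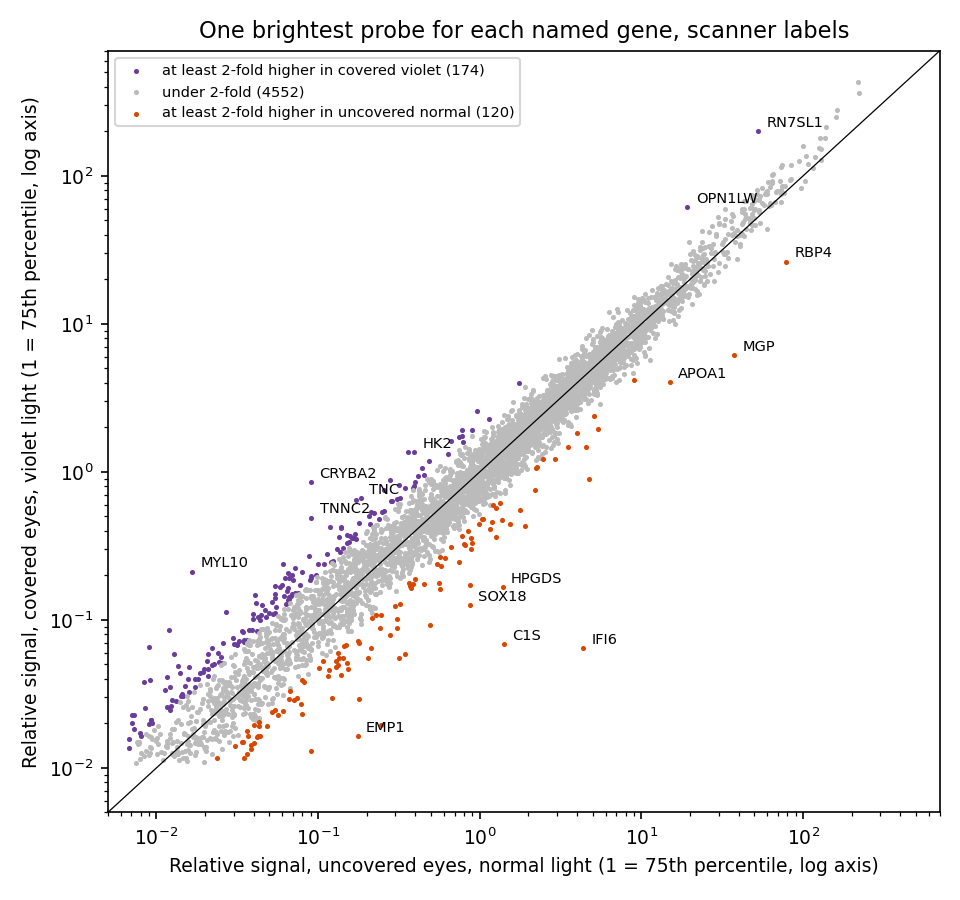
Relative signal of 4846 named genes on the covered violet array (vertical, log axis) against the uncovered normal array (horizontal, log axis), where 1 is the array's 75th percentile and each point is a gene's brightest probe. The 174 genes at least 2-fold higher in covered violet lie mostly among dim probes, and the 120 at least 2-fold lower include IFI6 and C1S far below the line of equal signal.

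Many of the differences were those of dim probes. With passing probes split into 5 equal groups from dim to bright, the share at least 2-fold apart was 21.3%, 18.8%, 9.62%, 3.24% and 1.32%. The median difference was 0.40, 0.33, 0.14, -0.02 and -0.003 in the same order, so the lean towards the covered violet array lay in the dimmer groups. The kind of record behind a probe went with it. Of 12577 probes for Ensembl transcripts, 12% were at least 2-fold higher and 1.18% lower, against 7.42% and 1.78% of the 10513 probes with a gene symbol, whose median relative signal was 0.60 against 0.243 for the Ensembl probes. Probes of the same gene also disagreed. Of 3159 genes with at least 2 passing probes, 659 or 20.9% differed by at least 2-fold among their own probes. The 294 called genes include 163 with a single probe, and of the other 131, every probe was at least 2-fold the same way in 52, while 20 had probes of opposite sign.

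**Figure D2:**
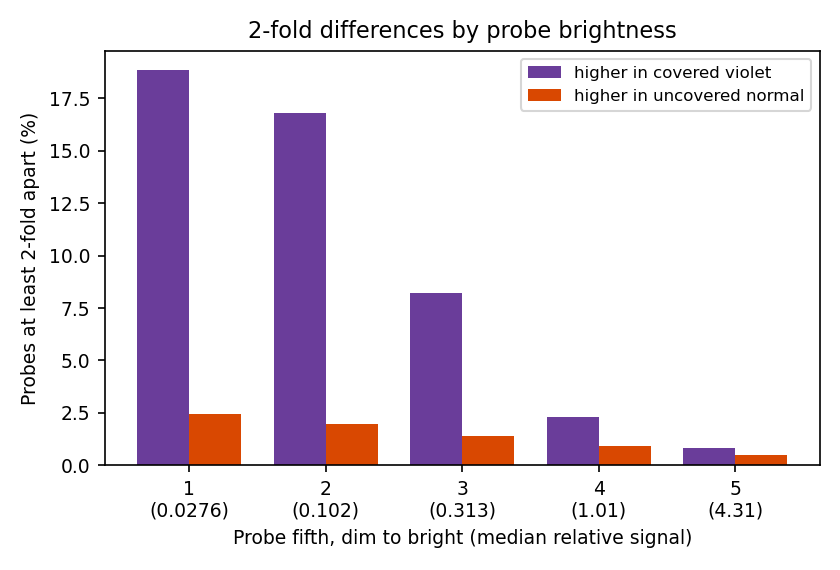
Share of passing probes at least 2-fold apart (vertical, percent) in 5 equal groups of probes from dim to bright (horizontal, with each group's median relative signal), higher in covered violet beside higher in uncovered normal. The share in both directions together falls with brightness, with 21.3% in the dimmest group and 1.32% in the brightest.

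The other 2 pools place each called gene. A gene whose covered normal value lay nearer to the covered violet array, and whose uncovered violet value lay nearer to the uncovered normal array, splits by goggle. The reverse splits by light. Of the 294 called genes, 62 split by goggle, 53 by light, 168 had both other pools nearer to the covered violet array, and 11 had both nearer to the uncovered normal array. The uncovered normal array thus stood apart from all others for 57.1% of called genes, against 47.1% of all genes measured. Of the 168, 130 were higher calls, whose number depended on the scaling. Before scaling that array also stood apart, with a 75th percentile of 2108 against 798, 883 and 1325 on the others. Its brightest spike-in spot read 128382 against 221417, 222529 and 236222. How far this bears on the classes was not tested, and they were not recomputed under other scalings. The goggle split held 21.1% of called and 30.4% of all genes, the light split 18% of called and 12.5% of all genes. The directions differed. Of the 174 genes higher in covered violet, 39 split by goggle and 3 by light, while of the 120 lower genes, 23 split by goggle and 50 by light. Under the authors' table labels, the goggle and light splits change places. Across the 4807 genes measured on all arrays, the difference described here and that between covered normal and uncovered violet, which shares no array with it, had a Pearson correlation of 0.243 and a Spearman correlation of 0.44, given as a description across genes that share slide and scaling.

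**Figure D3:**
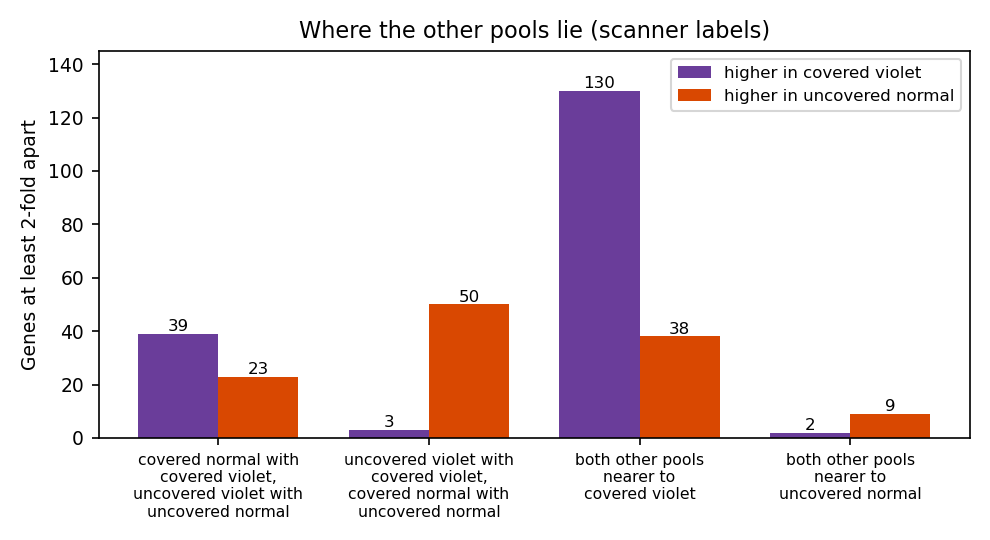
Number of genes at least 2-fold apart (vertical) by where the covered normal and uncovered violet pools lie (horizontal), for genes higher in covered violet beside genes higher in uncovered normal. The 130 higher genes with both other pools nearer to covered violet are the largest class, and 50 of the lower genes form the light split.

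Genes of striated muscle led the higher end. The list covers contractile proteins of skeletal and heart muscle, and 12 of its 23 measured members were at least 2-fold higher in the covered violet pool and none lower, against 3.59% and 2.48% of all genes. The list's median difference was 1.08, against 0.02 over all genes. Dim genes reached 2-fold more often. In the dimmest of 5 equal groups of genes, 112 of 970 were at least 2-fold higher and 59 lower. MYL10, a myosin light chain, had a relative signal of 0.212 on the covered violet array, 2.51 on the covered normal array, 0.0163 on the uncovered violet array and 0.0166 on the uncovered normal array. Both covered pools were thus far above both uncovered pools, and the covered violet pool was 12.8-fold above the uncovered normal pool, a log2 difference of 3.68. TNNC2, the calcium-binding troponin subunit of fast muscle, read 0.491, 8.55, 0.0446 and 0.0909 in the same order of pools, 5.41-fold higher in covered violet than in uncovered normal. MYL2, the regulatory light chain of heart and slow muscle, read 0.0655, 0.876, 0.00683 and 0.00895, which is 7.32-fold, or a log2 size of 1.65 after normexp correction against 2.87 as measured. In each of these genes the covered normal pool was the highest of all, above the covered violet pool. CKMT2, the mitochondrial creatine kinase of muscle, which no list holds, followed the same order, with 0.0851, 2.42, 0.00785 and 0.0119, and was 7.16-fold higher, with a size of 1.82 after normexp correction. The fast myosin heavy chain MYH1B was 3.94-fold higher, but its 3 probes ranged between log2 differences of 0.62 and 1.98, and this gene family has near-identical copies whose values cannot be kept apart.

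Of the 12 muscle genes, 11 split by goggle, against 22.4% of all genes called higher. The exception, MYH7, singled out after its values were seen, had 0.13, 0.118 and 0.0932 on the 3 other arrays against 0.0411 in uncovered normal. The list's median was 3.78 between covered normal and uncovered violet, so the larger gap lay in that pair of pools. Summed over the 23 members, the relative signal was 14.6 in covered violet, 42.1 in covered normal, 11.6 in uncovered violet and 13.4 in uncovered normal, where a bright member that differed little weighs most. With brighter probes only, 7 members remained, their median was -0.16 and 2 of them reached 2-fold, both higher in covered violet. How far muscle RNA in the covered pools bears on other differences was not tested. A further 4 muscle genes had no probe well above background in uncovered normal and so have only a bound. TNNT2, the troponin T of heart muscle, was at least 7.85-fold higher in covered violet than in uncovered normal, the myosin heavy chain MYH7B at least 7.23-fold and the oxygen-binding protein MB, myoglobin, at least 4.15-fold. CSRP3, the muscle LIM protein, named after its values were seen to complete the count, was at least 2.9-fold higher. SMYD1, another listed gene named after its values were seen, was well above background in uncovered normal only. It read 0.00856 there against 0.0108 in covered violet, so its bound did not reach 1-fold. With no filter on dim probes, 17 of 29 members were at least 2-fold higher and none lower.

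Lens genes followed another order of pools. CRYBA2, a beta crystallin of the lens, read 0.847 in covered violet, 1.81 in covered normal, 6.16 in uncovered violet and 0.0906 in uncovered normal. The uncovered normal pool was thus the lowest by far, and covered violet was 9.35-fold above it, with the gene's other probe at a log2 difference of 2.34 against 3.23. CRYAA, the lens alpha crystallin that also acts as a chaperone, read 0.0694, 0.0996, 0.345 and 0.0257 in the same order, 2.7-fold higher in covered violet. Of 16 measured lens genes these 2 reached 2-fold, where 3.59% of all genes were that much higher. None was as far lower, against 2.48% of all genes, and the median was 0.26. The list's summed relative signal was 5.14 in covered violet, 7.15 in covered normal, 17.5 in uncovered violet and 4.66 in uncovered normal. The uncovered violet pool, which is not part of the comparison, was thus the richest in lens transcripts.

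**Figure D4:**
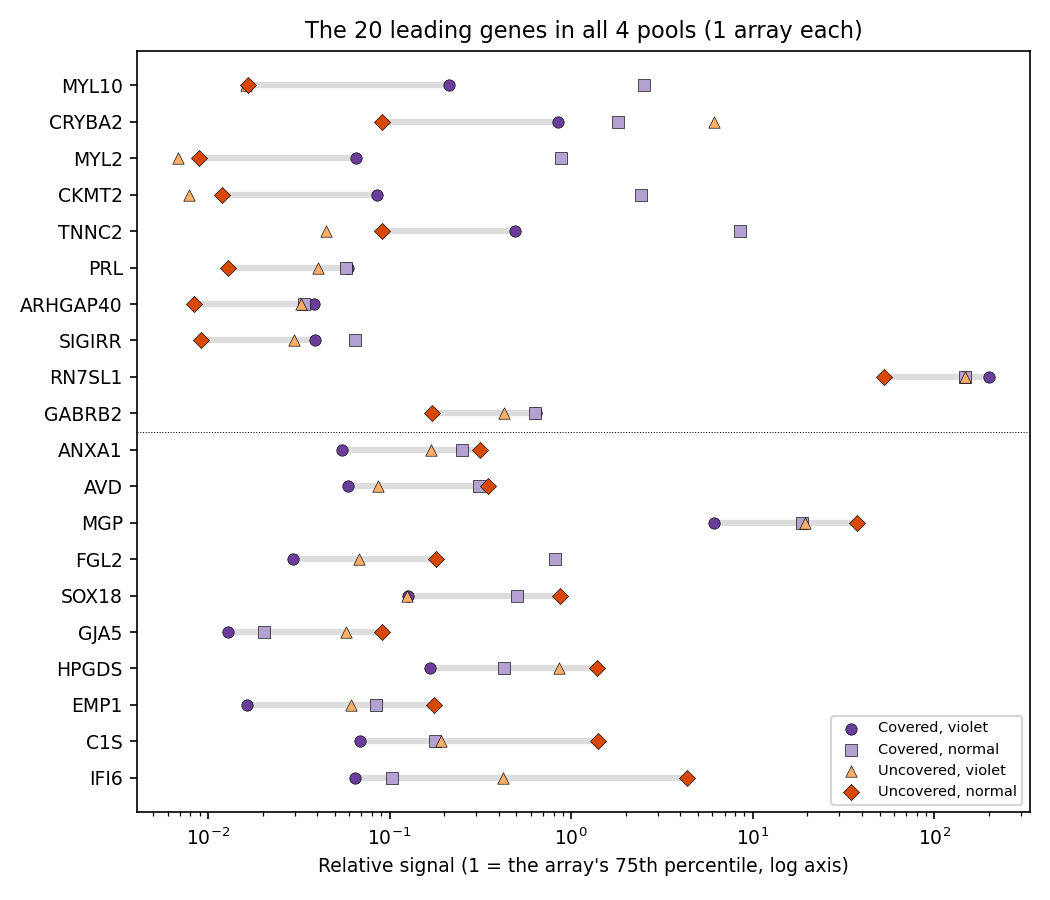
Relative signal (horizontal, log axis, 1 = the array's 75th percentile) of the 10 highest and 10 lowest genes in all 4 pools, 1 array each, with grey bars joining covered violet and uncovered normal. Muscle genes such as MYL10 and TNNC2 have both covered pools on the right, and IFI6 and C1S have the uncovered normal pool alone at the far right.

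Genes of the vessel wall made up the clearest group at the lower end. Of 13 measured endothelial genes, 8 were at least 2-fold lower in covered violet and none higher, against 2.48% of all genes lower, and the median was -1.36. SOX18, a transcription factor of endothelial and lymphatic vessels, read 0.127 in covered violet, 0.504 in covered normal, 0.124 in uncovered violet and 0.865 in uncovered normal. Both violet-light pools were thus low and both normal-light pools high, and covered violet was 6.83-fold below uncovered normal. CDH5, the cadherin that joins endothelial cells, read 0.0466, 0.169, 0.0534 and 0.152 in the same order, with a log2 difference of -1.71. SOX17, a transcription factor of arteries, differed by -2.04, and its other probe by -0.73. GJA5, a gap junction protein of arterial endothelium, was the exception to the light split, with 0.0129, 0.0204, 0.0575 and 0.0904, a 7-fold difference in which both covered pools were low. The 4 other called members, named to complete the count after their values were seen, were LYVE1 (-1.56), EDNRB (-1.37), FLI1 (-1.36) and GJA4 (-1.32), and each split by light. The other probe of FLI1 differed by -0.37. Of the 8 called endothelial genes, 7 split by light, as did 41.7% of all genes called lower. The other diagonal pair had a list median of 0.88, covered normal being above uncovered violet. Of 15 endothelial genes on the array, 2 were well above background on 1 of the 2 arrays only, and they went opposite ways. FLT1, a receptor for vessel growth factor, was at least 2.28-fold higher in covered violet by 1 of its 3 probes, and ERG, an endothelial transcription factor, at least 1.94-fold lower. Both were named after their values were seen.

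These endothelial genes were dim, and their sizes depended on the background correction. Of genes in the 2 dimmest of 5 equal groups, 59 of 970 and 34 of 969 were at least 2-fold lower. After normexp correction the list's median was -0.61 and 2 members were at least 2-fold lower, with GJA5 at a size of 0.70, SOX17 at 0.76 and CDH5 at 0.61. With brighter probes only, 4 members remained, with a median of -0.12. KDR, a receptor for vessel growth factor, named after its values were seen, read 3.99 in covered violet, 4.4 in covered normal, 3.93 in uncovered violet and 4.25 in uncovered normal. Its brightest probe thus hardly differed, while its 5 probes lay between -0.21 and 1.56.

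Connective tissue genes leaned the same way as the endothelium. Of 23 measured fibroblast and matrix genes, 6 were at least 2-fold lower and 1 higher, against 2.48% and 3.59% of all genes. The median was -0.57, and all 6 lower ones split by light, as did 41.7% of all genes called lower. With the mean of probes 3 were lower and the median was -0.15, and with median scaling 9 were lower and the median was -0.85. Of all 4846 genes, 92 and 239 were lower in these settings. DCN, decorin, a proteoglycan that binds collagen fibrils, read 0.551 in covered violet, 1.28 in covered normal, 0.738 in uncovered violet and 1.77 in uncovered normal, 3.22-fold lower. COL1A2, a chain of type I collagen, was 3.1-fold lower and FN1, fibronectin, 2.79-fold lower, but both gave smaller sizes with the mean of their probes, 1.03 for COL1A2 and 0.27 for FN1. The other lower members were COL6A2 (-1.29), LUM (-1.17) and COL3A1 (-1.08), named after their values were seen. The other probe of COL6A2 differed by 0.47, and the 10 probes of COL3A1 lay between -1.60 and 0.34. The higher member was TNC, tenascin C, a matrix glycoprotein of tissue under remodelling, with 0.669, 1.25, 0.38 and 0.184 in the same order of pools, 3.63-fold higher. TNC was lowest in the uncovered normal pool, and its 4 probes lay between 1.19 and 1.86.

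In the basement membrane, the sheet on which vessel and epithelial cells rest, 2 of 6 measured genes were at least 2-fold lower and none higher. Of all genes, 2.48% were lower and 3.59% higher by as much. The list's median was -0.49. The 2 lower genes were the paired type IV collagen chains COL4A1 (-1.54) and COL4A2 (-1.25), whose genes lie head to head and are known to be transcribed together. COL4A1 is among the genes whose probes disagreed most, between -1.54 and 0.72 over 4 probes, and had a size of 0.44 with the mean of its probes. COL4A2 had a size of 0.66 after normexp correction. Of 5 measured smooth muscle and pericyte genes, MYH11, the smooth muscle myosin, was 2.46-fold lower and the median was -0.44. MYH11 had 7 probes between -1.30 and 0.20, and a size of 0.41 with their mean.

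Interferon-induced genes held the widest gap of all. IFI6, a mitochondrial protein induced by type I interferon, read 0.0643 in covered violet, 0.103 in covered normal, 0.424 in uncovered violet and 4.35 in uncovered normal. The uncovered normal pool was alone in its high signal, and covered violet was 67.7-fold below it, with log2 differences of -6.08 and -6.14 for its pair of probes and a size of 5.14 after normexp correction. IFI27L2, of the same family, read 0.172, 0.254, 0.217 and 0.875, 5.09-fold lower in covered violet. IRF1, a transcription factor that interferon induces and that switches on further genes of the response, read 0.0549, 0.092, 0.0868 and 0.202, 3.68-fold lower, with a size of 0.87 after normexp correction. Of the 13 measured members, 12 were lower in covered violet, as were 2331 of all 4846 genes. At least 2-fold lower were 3 of the 12, against 2.48% of all genes and 59 of 970 in the dimmest of 5 equal groups. None was 2-fold higher, and the median was -0.74. With median scaling 7 were at least 2-fold lower, and after quantile normalization 5. Of all 4846 genes, 239 and 184 were lower by as much in these settings. The list has 14 members on the array. All 3 called members had both other pools nearer to covered violet, as did 31.7% of all genes called lower. MX1, an antiviral GTPase of the same response, was well above background in uncovered normal and in uncovered violet only, with 0.163 and 0.0161, and was at least 15.4-fold lower in covered violet than in uncovered normal. The median between covered normal and uncovered violet was -0.10.

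Complement and other inflammation genes followed. Of 20 members on the array 16 were measured, of which 6 were at least 2-fold lower in covered violet and none higher. Of all genes, 2.48% were lower and 3.59% higher by as much. In the dimmest of 5 equal groups of genes, 59 of 970 were at least 2-fold lower. The list's median was -0.62, or -0.28 after normexp correction. C1S, a protease that starts the classical complement pathway, read 0.0688 in covered violet, 0.178 in covered normal, 0.191 in uncovered violet and 1.41 in uncovered normal. As for IFI6, the uncovered normal pool alone was high, and covered violet was 20.5-fold lower, with a log2 size of 3.44 after normexp correction against 4.36 as measured. The enzymes that make prostaglandin D2 were both lower. HPGDS, the form of blood cells and immune tissue, read 0.168, 0.427, 0.854 and 1.38, 8.26-fold lower, with both covered pools below both uncovered ones and a size of 2.45 after normexp correction. PTGDS, the form of brain and eye that also carries lipids in fluids, read 0.9, 2.02, 1.28 and 4.76, 5.29-fold lower. AVD, avidin, a biotin-binding protein that chicken tissues make in inflammation, read 0.0588, 0.312, 0.0864 and 0.347, 5.89-fold lower and split by light, with a size of 1.69 after normexp correction. The 2 remaining called members, named after their values were seen, were the cytokine IL15 (-1.45) and the chemokine CCL4 (-1.28), both split by light.

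Of 17 leukocyte genes on the array 12 were measured, of which 3 were at least 2-fold lower and none higher, with a median of -0.16. Of all genes, 2.48% were lower and 3.59% higher by as much. Of the 2 arrays, CD4, CD3E, MARCO and CD44 were well above background on uncovered normal only, and were named after their values were seen. CD4 was at least 3.29-fold lower by 1 of its 2 probes and CD3E at least 2.33-fold by 1 of 3, while the other bounds were under 2-fold. With no filter on dim probes, 6 of 17 members were at least 2-fold lower and none higher, where 175 of all 5294 genes were lower by as much. FGL2, a fibrinogen-like protein of macrophages and regulatory T cells, read 0.0293 in covered violet, 0.811 in covered normal, 0.0679 in uncovered violet and 0.179 in uncovered normal. It was 6.12-fold lower in covered violet than in uncovered normal, with a log2 size of 1.13 after normexp correction, and highest in covered normal. IL1RL1, the interleukin-33 receptor, differed by -1.82, and CTSS, the lysosomal protease cathepsin S, by -1.37, and with the mean of probes the sizes were 1.14 for IL1RL1 and 0.85 for CTSS. Of 10 measured erythroid genes, TFRC, the transferrin receptor that brings iron into many kinds of cell, was 3.15-fold higher, and the other members, globins among them, stayed under 2-fold between -0.64 and 0.21. Globins are near-identical to each other in part, which leaves their single values uncertain. The erythroid median was -0.21, and the summed signal of the list was 80.9 in covered violet against 83.9 in uncovered normal. Most of that sum was CA2, named after its values were seen, with 52.3 and 49.8, so the sum says little of the other members.

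In the photoreceptors, the cone side moved in both directions. OPN1LW, the pigment of red-sensitive cones, read 61.4 in covered violet, 54.9 in covered normal, 24 in uncovered violet and 19.2 in uncovered normal. Both covered pools were above both uncovered pools, and covered violet was 3.19-fold above uncovered normal, a log2 difference of 1.68 on a single probe. It was the only opsin of 6 measured to reach 2-fold by its brightest probe, where 6.07% of all genes did. With the mean of probes 3 of 6 did and the median was 0.71. The brightest probe of OPN1MSW, the pigment of green cones, differed by 0.49 and its other probe by 1.55, and for OPN4, the pigment melanopsin, the values were 0.96 and 1.70. Both were named after their values were seen. Of the 6 opsins, 5 were higher in covered violet and 1 lower, against 2515 and 2331 of all 4846 genes. Their median was 0.45, with a range between -0.56 and 1.68. The violet cone pigment, OPN1SW, was on the list of 12 opsins, 8 of which were on the array by name. It was not among the 6 measured, so it has no value here.

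The cascade behind the pigments leaned the other way. Of 15 measured phototransduction genes, 12 were lower in covered violet, as were 2331 of all 4846 genes. At least 2-fold lower were 2 of the 12, against 2.48% of all genes. None of the 15 was higher by as much, and the median was -0.27. GRK7, the kinase that shuts off cone opsins, read 1.47 in covered violet, 1.45 in covered normal, 3.51 in uncovered violet and 3.52 in uncovered normal. The covered pools lay close to each other and so did the uncovered ones, and the log2 difference was -1.26 for the brighter of its probes and -1.17 for the other. CNGA3, a subunit of the cone ion channel that closes in light, read 1.08, 1.09, 2.15 and 2.26 in the same order, with a difference of -1.06 and a size of 0.98 after normexp correction and 0.92 with the mean of its probes. The median of the list between covered normal and uncovered violet was -0.45. Of 11 measured photoreceptor transcription factors, MAFA, a leucine-zipper factor, was 2.05-fold lower in covered violet, with 0.178, 0.152, 0.19 and 0.365, and had a size of 0.59 after normexp correction. The median of these factors was 0.08.

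In vitamin A handling, RBP4, the carrier of retinol between tissues, read 26.4 in covered violet, 23.1 in covered normal, 90.7 in uncovered violet and 78.4 in uncovered normal. Both covered pools lay well below both uncovered pools, and the difference of 2.97-fold rested on 1 bright probe. RARA, a receptor for retinoic acid, read 0.104, 0.0985, 0.0898 and 0.0423, 2.46-fold higher in covered violet, with the uncovered normal pool apart from the other 3 and a size of 0.93 in the authors' deposited table, 0.94 after quantile normalization and 0.97 after cyclic loess, all under 2-fold. Of 16 measured members of the visual cycle and retinoic acid list, these were the only ones to reach 2-fold, and the median was -0.19. That is 1 member each way, where 3.59% of all genes were higher and 2.48% lower. With median scaling 4 members were lower, as were 239 of all 4846 genes.

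EGR1 read 0.102 in covered violet, 0.0789 in covered normal, 0.238 in uncovered violet and 0.214 in uncovered normal. Both covered pools were below both uncovered pools, and covered violet was 2.1-fold below uncovered normal, with log2 differences of -1.07 and -1.22 for its 2 probes. After normexp correction the size was 0.65, under 2-fold. EGR1 was the only one of 8 measured immediate-early genes to reach 2-fold in either direction, where 6.07% of all genes did. The median of the 8 was -0.03, with the other 7 between -0.74 and 0.36. In the authors' deposited table, whose labels turn the sign, EGR1 was higher in the column named covered violet, by a log2 size of 1.31. Under those labels both violet-light pools were above both normal-light pools, so the goggle split becomes a light split.

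Of 20 measured genes for signals tied to eye growth, 2 were at least 2-fold higher and 1 lower, with a median of -0.06. These counts are too small to set apart from the 3.59% of all genes higher and 2.48% lower. APOA1, the main apolipoprotein of high-density lipoprotein, which chick work has linked to signals that slow eye growth, read 4.02 in covered violet, 7.39 in covered normal, 5.32 in uncovered violet and 15 in uncovered normal. It was 3.73-fold lower in covered violet, and the uncovered normal pool was apart from the other 3. FGF10, a fibroblast growth factor, was 2.24-fold higher and IGF1, insulin-like growth factor 1, just past the threshold, in both cases with the uncovered normal pool apart. After quantile normalization FGF10 had a size of 0.87 and IGF1 of 0.70, so neither call holds there.

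Dopamine and acetylcholine are transmitters of amacrine cells that have both been tied to eye growth in chicks. Of 11 measured genes of the pair, CHAT, which makes acetylcholine, was 2.23-fold higher in covered violet, with 0.0558, 0.0566, 0.069 and 0.0251. MAOA, which breaks down dopamine among other amines, was 2.1-fold lower, with 0.366, 0.375, 0.487 and 0.771. In both the uncovered normal pool was apart, and neither call is stable, CHAT having a size of 0.81 after quantile normalization and MAOA of 0.86 after normexp correction. That is 1 member each way of 11, too few to set apart from the 3.59% of all genes higher and 2.48% lower. The list's median was 0.20.

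Of 16 measured clock and melatonin genes, PER3, a repressor of the circadian loop, read 0.401 in covered violet, 0.372 in covered normal, 0.982 in uncovered violet and 0.84 in uncovered normal. It was 2.1-fold lower in covered violet and split by goggle, with a size of 0.95 after normexp correction. TEF, an activator driven by the same clock, was 2.02-fold higher, with a size of 0.94 after that correction and 0.73 with median scaling. No other member reached 2-fold, so 1 of 16 was called each way, where 3.59% of all genes were higher and 2.48% lower. The median of the list was 0.05. The sources used here do not give the hour at which each pool was collected.

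Few genes of neurons and glia were called, in lists too short to set apart from the 6.07% of all genes called. None of 16 interneuron and ganglion cell genes reached 2-fold by its brightest probe, and with the mean of probes 1 did. The largest difference was that of VSX1, a transcription factor of bipolar cells, 1.8-fold higher, with a list median of 0.03. None of 11 glia and myelin genes reached 2-fold by its brightest probe, and with the mean of probes 1 did. AQP4, the water channel of Müller glia, was the largest at 1.87-fold higher, with a median of -0.28. Among 23 subunits of transmitter receptors, GABRB2, a beta subunit of the GABA-A receptor, was the only one past 2-fold. It read 0.641 in covered violet, 0.631 in covered normal, 0.424 in uncovered violet and 0.171 in uncovered normal, 3.76-fold higher, with its 3 probes between 1.49 and 1.91. The list's median was -0.18. Of 13 voltage-gated channel genes, the potassium channels KCNA6 and KCNA3 were 2.54-fold and 2.12-fold higher, where 3.59% of all genes were at least 2-fold higher. KCNA6 had a size of 0.91 after cyclic loess and KCNA3 of 0.81 after quantile normalization, and the median of the channels was -0.04.

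In pigment cells, TYR, the enzyme that starts melanin synthesis, read 0.246 in covered violet, 0.542 in covered normal, 0.572 in uncovered violet and 0.748 in uncovered normal. The covered violet pool was the lowest, 3.04-fold below uncovered normal. TYR was the only one of 8 measured pigment cell genes to reach 2-fold, where 6.07% of all genes did, and the list's median was -0.20.

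Of the housekeeping groups, the ribosomal proteins lay to one side as a block of small size. Of 42 ribosomal protein genes, 39 were higher in covered violet, as were 2515 of all 4846 genes. None reached 2-fold, where 6.07% of all genes did but 0.619% of those in the brightest of 5 equal groups of genes. The median was 0.44, with RPL13 the largest at 1.82-fold. The median of that list was -0.04 between covered normal and uncovered violet. Of 35 oxidative phosphorylation genes and 23 proteasome genes none reached 2-fold, with medians of 0.07 and 0.00, and COX7A2 and PSMD2 were the largest at 1.44-fold and 1.6-fold higher. None of 23 chaperone genes did, with a median of -0.20, and CRYAB, a small heat shock protein also found in lens, was the largest at 1.6-fold lower. All ribosomal, oxidative phosphorylation and proteasome genes remained with brighter probes only, as did 22 chaperone genes. Few genes that bright were called, so having no called member does not set these lists apart. The ribosomal block stood above the median of 0.02 over all genes, while the other 3 lists lay nearer to it.

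Of 21 hypoxia and glycolysis genes, 2 were at least 2-fold higher and none lower, where 3.59% of all genes were higher and 2.48% lower. The list's median was 0.29, or -0.03 after quantile normalization. HK2, the hexokinase that traps glucose in cells of high demand, read 1.37 in covered violet, 1.04 in covered normal, 0.976 in uncovered violet and 0.393 in uncovered normal, 3.48-fold higher, with both probes past 2-fold. VEGFA, the vessel growth factor that low oxygen induces, read 0.527, 0.564, 0.417 and 0.22, 2.39-fold higher, with a size of 0.98 after median scaling. In both, the uncovered normal pool was the low one and the other 3 pools lay close to each other. Among 20 cholesterol and lipid genes, besides APOA1, the cholesterol exporter ABCA1 reached 2-fold, 2.98-fold higher on a dim probe, and the median was 0.26.

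**Figure D5:**
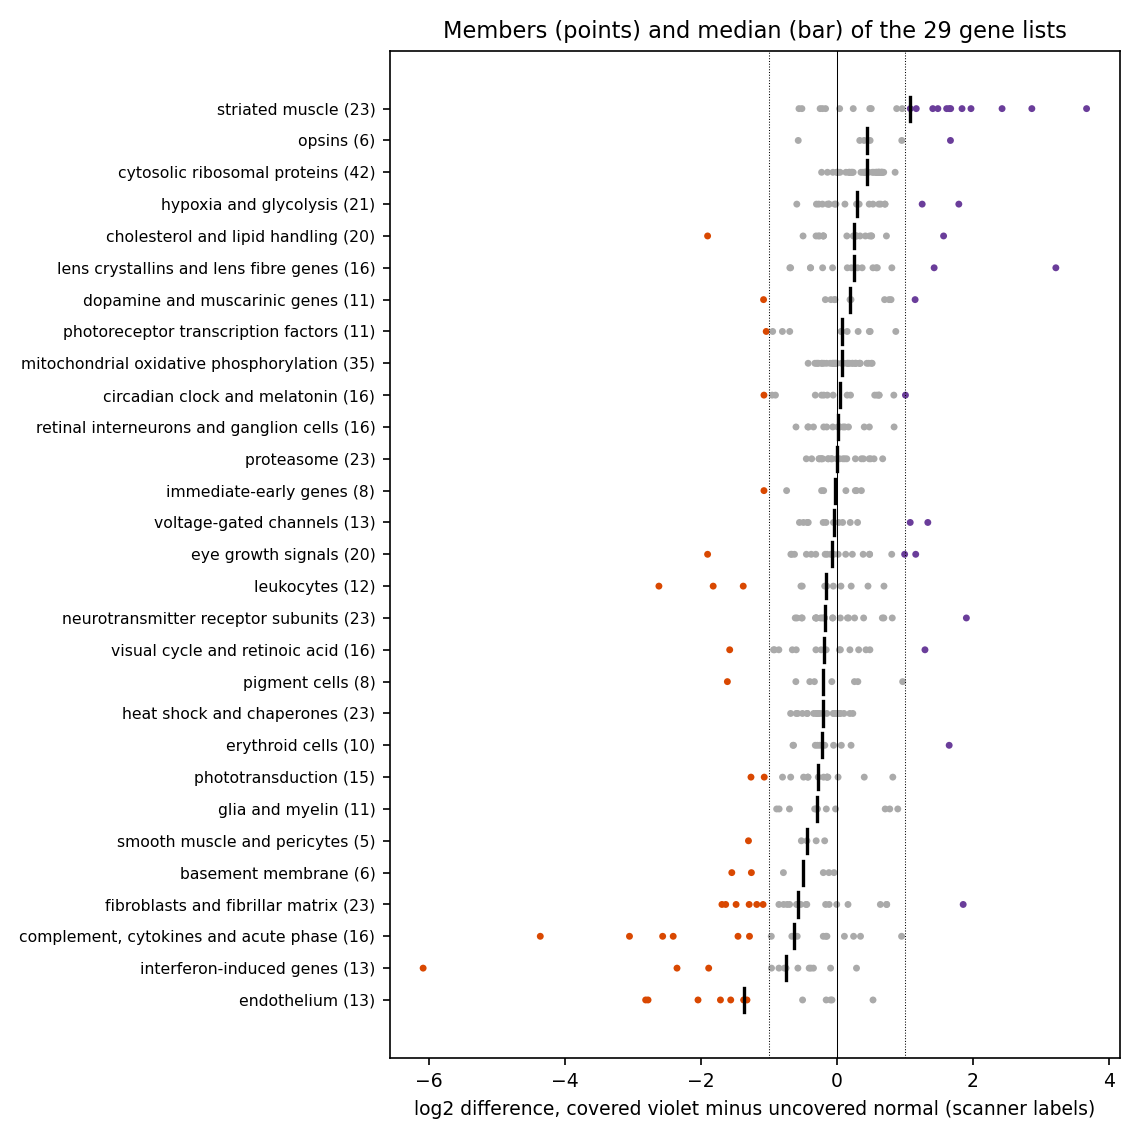
Log2 difference, covered violet minus uncovered normal by the scanner labels (horizontal), of each measured member (points) of 29 gene lists (vertical, number of members in brackets), with the list median as a black bar and 2-fold as dotted lines. Striated muscle has the highest median at 1.08 and endothelium the lowest at -1.36, against 0.02 over all genes.

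The remaining leading genes belong to no list or to several tissues. Higher in covered violet were PRL, the pituitary hormone prolactin (4.6-fold), ARHGAP40 (4.58-fold), and SIGIRR, a brake on Toll-like and interleukin-1 receptors (4.25-fold), each on 1 dim probe and each with the uncovered normal pool apart. RN7SL1, the RNA of the signal recognition particle, was bright, with 200.6 in covered violet, 148 in covered normal, 147.1 in uncovered violet and 52.8 in uncovered normal, 3.8-fold higher. After normexp correction the log2 sizes were 1.48 for PRL, 1.41 for ARHGAP40 and 1.44 for SIGIRR. At the lower end, MGP, matrix Gla protein, an inhibitor of calcification in vessels and cartilage, read 6.14 in covered violet, 18.6 in covered normal, 19.4 in uncovered violet and 37.4 in uncovered normal, 6.09-fold lower, with 4 probes between -3.31 and -2.61. MGP was thus highest in the uncovered normal pool, lowest in the covered violet pool and level in the other 2. EMP1, an epithelial membrane protein, was 10.7-fold lower with 0.0164 against 0.175, and ANXA1, annexin 1, a brake on inflammation, 5.75-fold lower with 0.055 against 0.316, in both of which the covered violet pool was apart. After normexp correction the log2 sizes were 1.43 for EMP1 and 1.53 for ANXA1.

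Some genes were measured on only 1 of the 2 arrays. The covered violet array alone had 361 probes and 10 genes well above background, and the uncovered normal array alone 1623 probes and 117 genes. The bound reached 2-fold for all 10 of the former genes and for 19 of the 117 latter ones. These counts cannot be set against each other, because the bounds were taken against unlike floors. The lowest relative signal among probes well above background was lower on the uncovered normal array, which makes bounds in favour of covered violet larger. Before scaling the uncovered normal array was also the brighter, with a 75th percentile of 2108 against 883. Besides the muscle genes, HTR1A, a serotonin receptor, was at least 3.15-fold higher in covered violet, and MTTP, which loads lipid onto lipoproteins, at least 2.93-fold. HTR1A was well above background on that array only. Besides MX1, the genes with the largest bounds in the other direction were OCM1, a calcium-binding protein of the parvalbumin family, at least 7.68-fold lower in covered violet, and EDNRB2, an endothelin receptor that guides pigment cells in birds, at least 5.14-fold lower. CFC1, a co-receptor of Nodal signalling, was at least 4.75-fold lower and SMIM8, a small membrane protein, at least 4.69-fold lower. OCM1 was well above background on the uncovered normal array only, while CFC1 was highest in the covered normal pool.

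For 3 further called genes, the probes gave opposite answers. TAPBP, which loads peptides onto major histocompatibility complex class I, had probes at -2.16 and 0.58. BG1, a gene of the chicken major histocompatibility complex, had 5 probes between -0.42 and 2.31, and PRKAG3, a subunit of the energy sensor AMPK in muscle, 3 probes between -0.41 and 1.86. With the mean of probes the sizes were 0.79 for TAPBP and 0.42 for PRKAG3, and BG1 had 0.95 after quantile normalization, so none of the 3 calls holds under every setting.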

How the data were processed

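RNA of chick retina with choroid was labelled with Cy3 from 100 ng per pool and hybridised in 1 colour, 1 array for each of 4 pools. Per the submitters' processing notes and the file headers, the scanning program was Agilent Feature Extraction 11.5.1.1. The deposited scanner files hold an intensity per spot, which that program background-subtracts and detrends, and 0 or 1 marks for signal well above background, saturation and outliers (another unit, as deposited). The authors' deposited table holds linear intensity values with the same column median of 218.1, and the sources used here do not give its normalization.

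In R 4.3.3 with limma 3.58.1 and Python 3.11.15, repeated spots of the 43803 that are not controls were averaged to 43603 probes. Log2 of the processed signal minus each array's 75th percentile of it was used, and 18 probes with an outlier mark were dropped. Probes had to be well above background on both arrays. Symbols came from unversioned RefSeq accessions in a table of assembly GRCg7b. It gave 11711 probes 1 symbol, none several, and left 31892 unnamed here, 14881 of which carry Ensembl identifiers. The file headers state an older build, so no coordinates are given. Of list names, 15 were matched through a synonym in that table, such as CCN1 to CYR61. Some matches gave the symbol of a related gene, such as ALAS1 for ALAS2, PGK2 for PGK1 and PKLR for PKM. These are counted in their lists under that symbol.

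Each group is 1 array, so no test was run. A call is a log2 size of at least 1. For probes above background on 1 array only, the fold is a lower bound against the higher of that probe's own signal and the lowest signal among probes well above background on the other array. The counting step was tested on simulated data. Named genes are the 10 highest and 10 lowest with all probes past 2-fold, up to 4 called members of each of 29 lists (else the largest member), EGR1, the 5 largest bounds each way and the 4 called genes whose probes disagree most. Members and lists were chosen with earlier results of these data known, and some genes were added after their values were seen, as the text says. Alternatives were median, quantile, cyclic loess and spike-in scaling, normexp with an offset of 50, other filters, the mean of probes and the authors' table. Normexp used pixel medians of the spots, because the files used here hold no mean signal column.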

Additional observations from a re-analysis of the deposited data

Results flagged for a closer look

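The spike-in control spots, which enter no comparison of genes other than the scaling to them, differed between the 2 arrays. Of 10 spike-in probes, 8 were bright, and these were 1.73- to 2.22-fold brighter on the covered violet array than on the uncovered normal array, with a mean log2 difference of 0.953. The 75th percentile of the gene probes went the other way and was 2.39-fold higher on the uncovered normal array. Relative to the spike-in spots, the gene probes of the 2 arrays were 4.62-fold apart in brightness. The spike-in RNA is added during labelling, and how the 2 labellings differed was not tested.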

How the results depend on the processing

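No paired analysis was possible because each group has 1 array, and for the same reason no replicate could be left out. Genes higher and lower numbered 174 and 120 as measured, 74 and 239 with median scaling, 82 and 184 after quantile normalization, 86 and 187 after cyclic loess, 37 and 46 with brighter probes only, and 2 and 4760 when scaled to the spike-in spots, where the median over genes was -2.19. Lower genes numbered 54 after normexp correction. The authors' table, whose exchanged labels are turned here to the same arrays, gave 79 higher and 182 lower genes. Probes higher and lower numbered 3370 and 519 as measured, 1532 and 1332 with median scaling, 1548 and 1031 after quantile normalization, 1584 and 1042 after cyclic loess, 443 and 150 with brighter probes only, 1473 and 989 in the authors' table turned likewise, and 6 and 33950 when scaled to the spike-in spots. Lower probes numbered 164 after normexp correction and 1190 with no filter on dim probes. The SD over genes stayed between 0.42 and 0.612. List medians that lay over 0.0501 from 0, the median spot error, and changed sign follow, with the spike-in scaling apart. Other than for the table's exchanged labels the cause was not tested. In the authors' table with its own labels these were opsins -0.43, phototransduction 0.34, photoreceptor factors -0.026, eye growth 0.15, visual cycle 0.21, glia 0.33, pigment cells 0.35, lens -0.018, striated muscle -1.01, endothelium 1.63, smooth muscle 0.51, fibroblasts and matrix 0.72, basement membrane 0.61, interferon 0.89, complement 0.91, leukocytes 0.46, erythroid 0.29, hypoxia -0.15, chaperones 0.19, cholesterol -0.076, oxidative phosphorylation -0.045, ribosomal proteins -0.37 and transmitter receptors 0.18. Because the table's labels are exchanged, these lists leaned by array as measured. The dopamine and muscarinic list at 0.14 and the clock list at 0.11 kept their sign under the table's labels, so by array both turned over. With median scaling the medians that changed sign were photoreceptor factors -0.20, dopamine and muscarinic -0.081, clock -0.23, lens -0.016, cholesterol -0.016 and oxidative phosphorylation -0.20. After quantile normalization they were dopamine and muscarinic -0.14, clock -0.13, hypoxia -0.028 and oxidative phosphorylation -0.012, and after cyclic loess dopamine and muscarinic -0.11 and clock -0.11. After normexp correction they were leukocytes 0.028 and erythroid 0.007. With brighter probes only they were dopamine and muscarinic -0.084, clock -0.16, striated muscle -0.16 and cholesterol -0.02, and with the mean of probes eye growth 0.059, leukocytes 0.008 and transmitter receptors 0.066. The medians of interneurons, immediate-early genes, proteasome and channels lay nearer to 0 and changed sign in some settings, reaching -0.25, 0.14, -0.28 and 0.22 in that order. Scaling to the spike-in spots lowered every difference by 2.21 and was not run gene by gene. In the other settings no gene named by the fixed rule and measured on both arrays changed its direction between the 2 arrays. Genes added after their values were seen were not part of that check. Dim probes limit the comparison, since 21.3% of the dimmest group reached 2-fold against 1.32% of the brightest.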
